A study of Caenorhabditis elegans with 12 samples.

Results

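The baseline miRNA repertoire of untreated Caenorhabditis elegans was described from the 3 Control libraries (replicates 1, 2 and 3) among the 12 miRNA libraries of the series. These libraries were chosen by their label alone, which gives the treatment as untreated, and the other 9 libraries entered no value below except where named. Control worms were wild-type N2 animals that were synchronized at the L4 larval stage and held for 5 d at 20 °C on nematode growth medium (NGM) seeded with Escherichia coli OP50, without added glucose, DMSO or naringin. They were moved to new plates daily to take away progeny, and RNA came from whole worms, so fewer cells of a type and less RNA per cell cannot be told apart. The sources used here do not say how many cultures the replicates came from.

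A miRNA is cut from a hairpin precursor, whose 5′ and 3′ arms each give a strand of a duplex, named 5p and 3p. An Argonaute protein usually keeps a single strand of the duplex and the other is degraded. The strand that stays binds messenger RNAs mainly through its seed, the stretch next to its 5′ end, and miRNAs with related seeds are grouped into families that can act on shared targets. In C. elegans the first known miRNAs, lin-4 and let-7, time the larval stages, and other families act in muscle, embryos, neurons and ageing. No mature sequences were part of the material used here, so families are the groups in general use rather than groups read from bases, and some members may differ at a base of the seed.

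The Control libraries held 4990586, 5685450 and 5868806 miRNA counts in replicates 1, 2 and 3. The table named 263 mature miRNAs, 117 of them 5p, 129 of them 3p and 17 without an arm in the name. Between 262 and 263 of them had at least 1 count in a library, and 215 had 10 or more counts in all 3 libraries. The bar of 10 counts corresponded to 1.70 to 2.00 CPM (counts scaled to a library total of 1000000). Only miR-254-5p had a library with no count (1, 2 and 0 counts), and the 0 in replicate 3 allows a level of up to 0.511 CPM. At the bars of 100, 1000, 10000 and 100000 counts in every library, 141, 71, 33 and 9 miRNAs were left.

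A single miRNA dominated the repertoire. miR-1-3p, which is made in muscle and acts at the neuromuscular junction, took 38.1%, 48.2% and 44.9% of the counts of replicates 1, 2 and 3 (mean 43.7% ± 5.14, SD, n = 3). The 95% Wilson interval of its share in replicate 1 was 38.1% to 38.2%, so counting error was far below the spread between the libraries. It was lowest in replicate 1 and highest in replicate 2. miR-58a-3p, the leading member of the worm relatives of the fly miRNA bantam, followed with 15.5%, 12.8% and 9.38% (mean 12.6% ± 3.05, SD, n = 3). Its order across the libraries differed from that of miR-1-3p, with replicate 1 highest and replicate 3 lowest. These were the only miRNAs with a mean over 100000 CPM, and both kept their rank in all 3 libraries without overlap with the next miRNA.

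The places below them were less settled. miR-70-3p had 5.29%, 4.93% and 4.82% of the counts, and miR-71-5p, a miRNA of neurons and other tissues that promotes longevity in worms, had 4.14%, 3.60% and 5.51%. miR-71-5p stood at place 3 in replicate 3 but at place 6 in replicate 1, and its values overlapped those of both neighbours. miR-35-3p had 5.00%, 3.89% and 4.08%, and miR-37-3p, from the same family of embryonic miRNAs, had 4.93%, 3.44% and 3.62%. Both were highest in replicate 1, and their ranges overlapped. miR-80-3p, a bantam relative with a known part in dietary restriction, had 3.44%, 2.51% and 2.48%. The next places were held by miR-39-3p (mean 2.39% ± 0.286), miR-72-5p (2.26% ± 0.180), miR-48-5p (1.88% ± 0.395) and miR-82-3p (1.76% ± 0.279, SD, n = 3 each), each of which overlapped its neighbours.

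miR-44-3p and miR-45-3p carried the same counts in all 12 libraries of the series, 255066 each over the Control libraries, so their shares of 1.39%, 1.37% and 1.84% cannot be told apart. If the same reads were counted for both names, 1.54% of the Control counts stand in the table a second time. miR-52-5p followed with 1.21%, 1.01% and 0.933%, and miR-61-3p, which acts with LIN-12/Notch in vulval precursor cells, with 0.860%, 0.675% and 0.858%. miR-52-5p overlapped neither the pair above it nor miR-61-3p, whose Wilson interval in replicate 1 was 0.852% to 0.868%. Sequencing reads without molecular identifiers are not independent molecules, so these intervals cover counting error only.

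**Figure D1:**
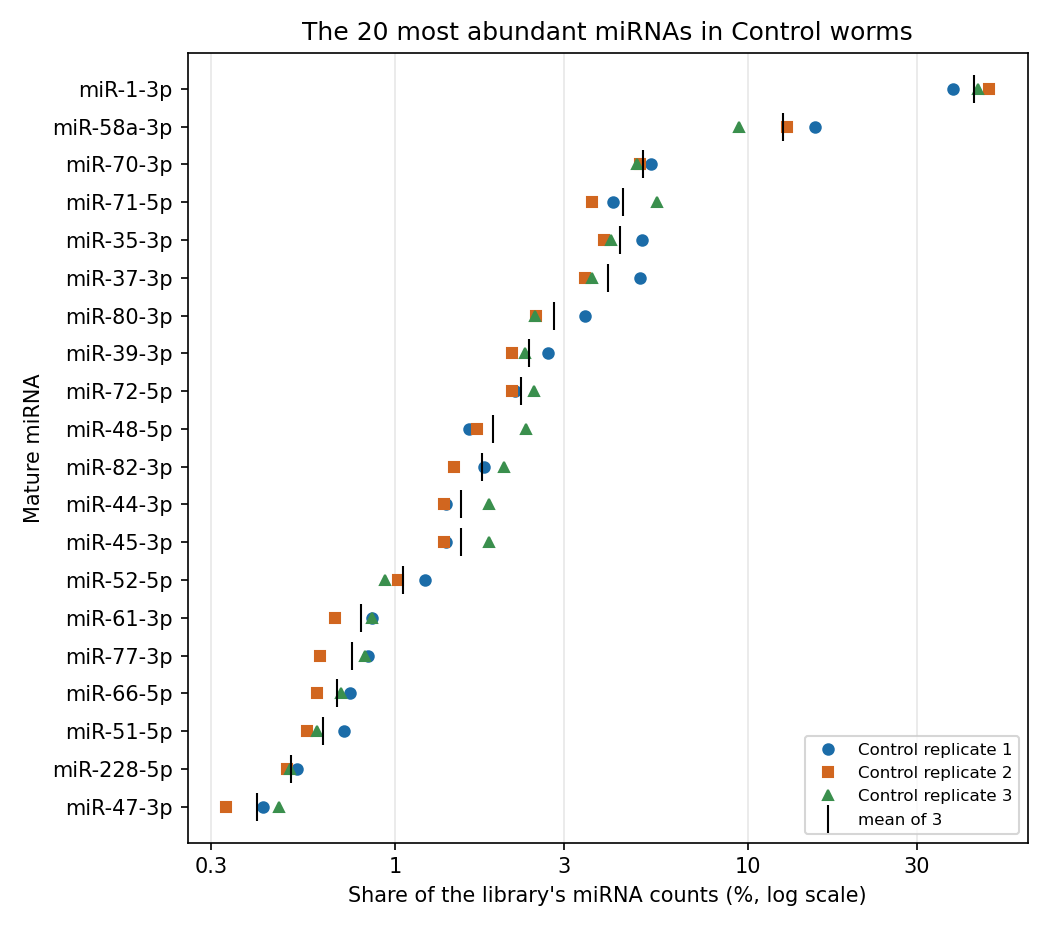
Share of each library's miRNA counts in percent (log axis) for the 20 miRNAs with the highest mean share, with a point for each Control library and a vertical bar for the mean. miR-1-3p (mean 43.7%) and miR-58a-3p (mean 12.6%) stand apart, and from miR-70-3p (mean 5.02%) on most neighbours overlap.

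The counts were thus concentrated in few names. The 10 miRNAs with the highest mean share took 83.4% ± 1.79 of the counts (SD, n = 3), and the top 20 of each library took 92.5% to 93.9%. On the mean share, 2 miRNAs reached 50% of the counts, 15 reached 90% and 56 reached 99%. The effective number of miRNAs, the number of equally abundant miRNAs that would give the same Shannon entropy, was 12.5, 9.59 and 11.6 in replicates 1, 2 and 3 (mean 11.3 ± 1.51, SD, n = 3). It was lowest in replicate 2, where miR-1-3p was highest.

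Among the 215 miRNAs with 10 counts in every library, mean levels ran over 5.33 units of log10, with miR-1-3p at 437311 CPM and miR-794-3p at 2.06 CPM. The median was 46.6 CPM, and the middle of the distribution lay between 11.8 and 424 CPM (quartiles). Over all 263 names, by decades of mean CPM, 2 miRNAs stood at 100000 or above with 56.3% of the counts, 12 at 10000 to 100000 with 33.0%, 29 at 1000 to 10000 with 8.91% and 41 at 100 to 1000 with 1.46%. Another 84 miRNAs at 10 to 100 CPM shared 0.324%, 76 at 1 to 10 CPM shared 0.0261%, and 19 below 1 CPM shared 0.00122%. Of the names at 1 to 10 CPM, 47 had 10 counts in every library, and below 1 CPM 0 did. The 48 names that missed 10 counts in some library held 0.00604% in all. Names numbered 1000 or above, which were registered later than the classical miRNAs, made up 71 of the 263 names and 0.129% ± 0.0169 of the counts (SD, n = 3), and 37 of them had 10 counts in every library. The most abundant of these was miR-4813-5p, with 1226, 1382 and 2351 counts.

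The counts were also added up by family, a grouping that can only keep or raise the share of the leading names. The 263 names fell into 215 groups, of which 19 had more than 1 member, and these 19 families held 67 names and 87.4% ± 1.31 of the counts (SD, n = 3). The 5 leading groups took 82.0% ± 1.83 of the counts (SD, n = 3) and the 10 leading groups 94.3%. On the mean share, 8 groups reached 90% of the counts and 27 reached 99%. In 8 of the 19 families a single member supplied over 80% of the family's counts.

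The miR-1 family led with 43.7% of the counts, and this share was nearly all miR-1-3p, since its relative miR-796 had 22, 37 and 17 counts. The miR-58 family took 21.0%, 17.03% and 14.2% in replicates 1, 2 and 3 (mean 17.4% ± 3.41, SD, n = 3). Members of this family act together on body size, egg laying and TGF-β signalling. Within it, miR-58a-3p supplied 73.8%, 75.4% and 66.2% of the family's counts, miR-80-3p 16.4%, 14.7% and 17.5%, and miR-82-3p 8.50%, 8.63% and 14.3%. Replicate 3 had the lowest part of miR-58a-3p and the highest parts of miR-80-3p and miR-82-3p. The level of miR-80-3p itself was lowest in replicate 3, at 5.56%, 4.85% and 4.50% of the counts other than miR-1-3p. On the same scale miR-82-3p was highest there, at 2.88%, 2.84% and 3.68%. miR-81-3p supplied 1.47% on average, and miR-2209a-3p was near the detection bar with a mean of 15 counts.

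The miR-35 family, which is required for embryonic development and is used here as the embryo list, took 13.4%, 10.1% and 10.8% of the counts (mean 11.4% ± 1.76, SD, n = 3), with all 8 members over 10 counts in every library. Whole-worm RNA does not separate the germ line and the eggs held in the body from the other tissues of the adult. The parts of the family's 3 leading members varied less between libraries than the family's share of all counts. That share also moves with the share of miR-1-3p, and the comparison was not made with miR-1-3p left out of the total. Relative to its size, the part of miR-36-3p varied more than those of the 3 leading members, at 2.74%, 2.70% and 3.44% of the family. miR-35-3p supplied 37.3%, 38.6% and 37.8% of the family, miR-37-3p 36.7%, 34.1% and 33.5%, and miR-39-3p 20.2%, 21.3% and 21.5%. The remaining members supplied little, from 2.96% for miR-36-3p, 1.83% for miR-40-3p and 1.29% for miR-38-3p to 0.242% for miR-42-3p and 0.0188% for miR-41-3p (means of 3). The highest member, miR-35-3p, stood 2031-fold above miR-41-3p, which had 108, 111 and 133 counts.

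miR-70-3p and miR-71-5p, which have no relatives in the families used, took places 4 and 5. The miR-44 family followed with 3.64%, 3.42% and 4.53% (mean 3.87% ± 0.588, SD, n = 3). miR-44-3p and miR-45-3p, the pair with identical counts, supplied 39.6% of it each, miR-61-3p 20.8% and miR-247-3p 0.0832%. With the pair counted as 1 miRNA, the family took 2.37% of the counts. The miR-72 family took 2.50% ± 0.213 (SD, n = 3), 90.7% of it from miR-72-5p, 8.31% from miR-73-3p and 1.04% from miR-74-3p.

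The let-7 family, which controls the larval-to-adult switch and earlier stage transitions, took 2.17%, 2.24% and 2.95% of the counts (mean 2.45% ± 0.431, SD, n = 3). Its namesake was not its main member. miR-48-5p had 80461, 96813 and 137160 counts and supplied 76.5% of the family on average, miR-84-5p supplied 13.2%, let-7-5p 7.84% and miR-241-5p 2.11%. let-7-5p itself had 1882, 2034 and 1699 CPM, and was highest in replicate 2, whereas miR-48-5p and miR-241-5p were highest in replicate 3. The members miR-793, miR-794-5p and miR-795-5p supplied 0.154%, 0.0635% and 0.0554%. The lin-4 family showed the same feature at a lower level, since lin-4-5p had 496, 488 and 556 CPM and its relative miR-237-5p had 3475, 3283 and 3177 CPM, so that miR-237-5p supplied 86.6% of this family. The 6 listed timing miRNAs (lin-4-5p, let-7-5p, miR-48-5p, miR-84-5p, miR-241-5p and miR-237-5p) together took 2.56%, 2.61% and 3.32% of the counts.

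The miR-51 family, which is related to the vertebrate miR-99 and miR-100 miRNAs and acts in the embryo, took 2.27% ± 0.263 of the counts (SD, n = 3). It was the most even of the 10 leading groups with several members, with 14.3-fold between its highest and lowest. miR-52-5p supplied 46.4%, miR-51-5p 27.6%, miR-54-3p 9.93%, miR-55-3p 7.94%, miR-56-3p 4.90% and miR-53-5p 3.24%. The miR-63 family took 1.21% ± 0.140 (SD, n = 3), with 56.6% from miR-66-5p, 16.7% from miR-64-5p, 16.5% from miR-65-5p, 7.37% from miR-229-5p and 2.82% from miR-63-3p. These parts moved by little between libraries, with miR-66-5p at 56.8%, 57.2% and 56.0% of the family.

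**Figure D2:**
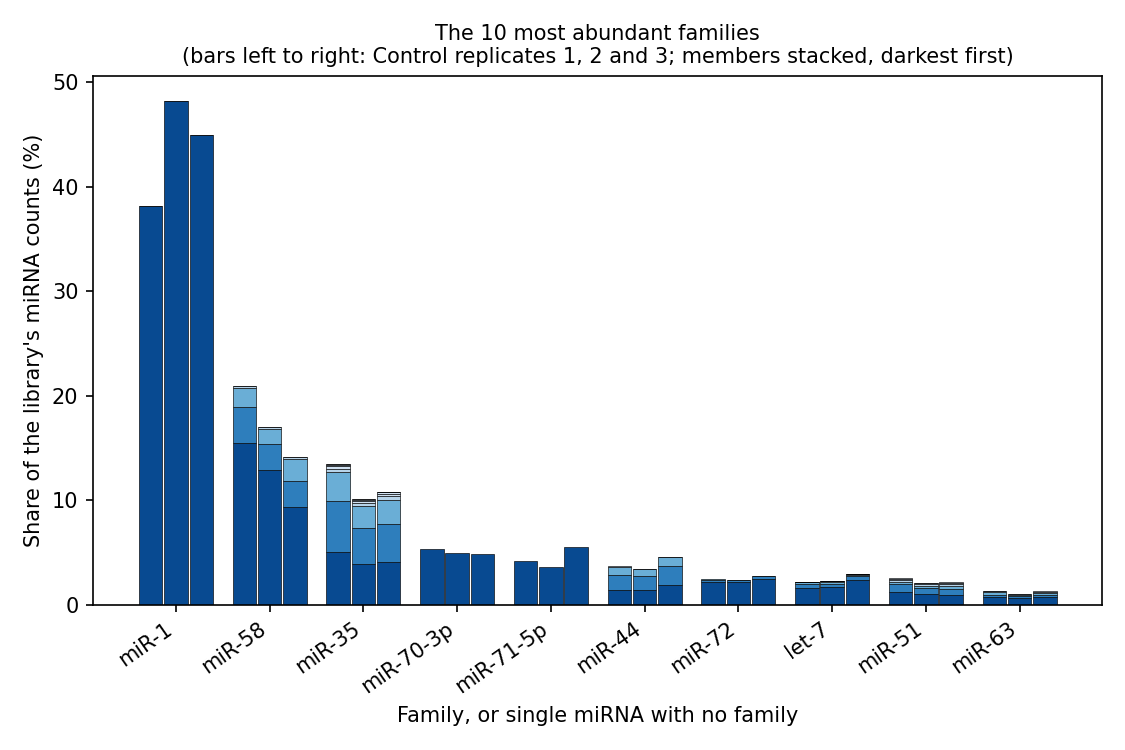
Share of each library's miRNA counts in percent for the 10 leading families or single miRNAs, with 3 bars for Control replicates 1, 2 and 3 and the members stacked from the most abundant upward. The miR-1, miR-58 and miR-35 families averaged 43.7%, 17.4% and 11.4%, and the miR-35 bars are split mainly among 3 members.

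Families also crossed the arms of the hairpin. In 8 of the 19 families the members were not all named for the same arm. miR-51, miR-52 and miR-53 of the miR-51 family came from 5p arms and miR-54, miR-55 and miR-56 from 3p arms. In the miR-72 family, miR-72 came from the 5p arm and miR-73 and miR-74 from 3p arms. Counts as a whole came mostly from 3p arms, with 14.3% ± 1.76 from 5p arms, 85.5% ± 1.79 from 3p arms and 0.136% from names without an arm (SD, n = 3).

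Both arms were named for 94 precursors, and 91 of these had 10 or more counts over both arms in every library. The 5p arm was the higher in all 3 libraries for 27 precursors and the 3p arm for 58, and in 6 the higher arm changed between libraries. The arms differed by at least 10-fold in every library for 55 precursors, 17 of them with more 5p and 38 with more 3p, and by at least 100-fold for 27. The median ratio of the higher to the lower arm was 27.5. Of all counts of precursors with both arms named, the lower arms made up 0.770%, 0.681% and 0.931%, so nearly all of these counts came from the higher arm. A further 58 precursors had a single arm named, 23 of them 5p and 35 of them 3p, and gave no ratio.

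The strongest 3p excess was that of miR-1, with 537, 573 and 858 counts for 5p and 1901805, 2739667 and 2634991 for 3p. On the log2 scale of 5p to 3p, with 0.5 added to each count, this was −11.86 ± 0.33 (SD, n = 3). miR-35 (−11.25 ± 0.24), miR-37 (−11.12 ± 0.56), miR-70 (−10.21 ± 0.27) and miR-246 (−10.16 ± 0.16) followed. miR-37 varied most among these, and its 5p arm had 78, 80 and 145 counts, with replicate 3 apart from the other libraries. miR-246, one of the miRNAs tied to worm ageing, had only 14, 12 and 20 counts for its 5p arm, against 16997, 15841 and 20856 for 3p.

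At the other end stood miR-52, with 60465, 57641 and 54775 counts for 5p and 74, 74 and 100 for 3p (log2 ratio 9.45 ± 0.31, SD, n = 3). miR-66 (9.36 ± 0.11), miR-50 (8.60 ± 0.75), miR-48 (8.59 ± 0.47) and miR-72 (8.58 ± 0.25) came next. miR-66 was the steadiest of these between libraries, whereas the ratio of miR-50 rested on 10, 18 and 27 counts of its 3p arm. The ratios of the last 3 overlapped. The timing miRNAs let-7 and lin-4 also had a clear 5p excess, with log2 ratios of 6.29 ± 0.12 and 8.55 ± 0.96 (SD, n = 3), although lin-4-3p had only 6, 14 and 4 counts.

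A few precursors were balanced. miR-67 had 45, 32 and 36 counts for 5p and 34, 30 and 46 for 3p (log2 ratio 0.05 ± 0.38, SD, n = 3). miR-231 had 243, 209 and 304 counts for 5p and 220, 235 and 245 for 3p (0.10 ± 0.24). The higher arm of both changed between libraries, as it did for miR-789 (−0.14 ± 0.77), miR-795 (0.18 ± 0.33) and miR-63 (0.23 ± 0.33). miR-63 was the only one of these 5 with over 1000 counts for both arms, with 1756, 2059 and 2843 counts for 5p and 1933, 1651 and 2006 for 3p. Its 3p arm, which the family grouping counts, was the higher in replicate 1 only. The name miR-789-3p is repeated in the table and the annotation holds 2 hairpins for miR-789, so its arms are uncertain.

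miR-77 was another precursor whose lower arm was itself abundant. Its 5p arm had 11217, 11153 and 19339 counts and its 3p arm 41603, 34741 and 48123, and the 5p arm alone stood at place 28 of all miRNAs. The median SD of the log2 ratio was 0.27 over the 91 precursors, and 0.20 over the 43 whose lower arm averaged 100 counts or more.

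**Figure D3:**
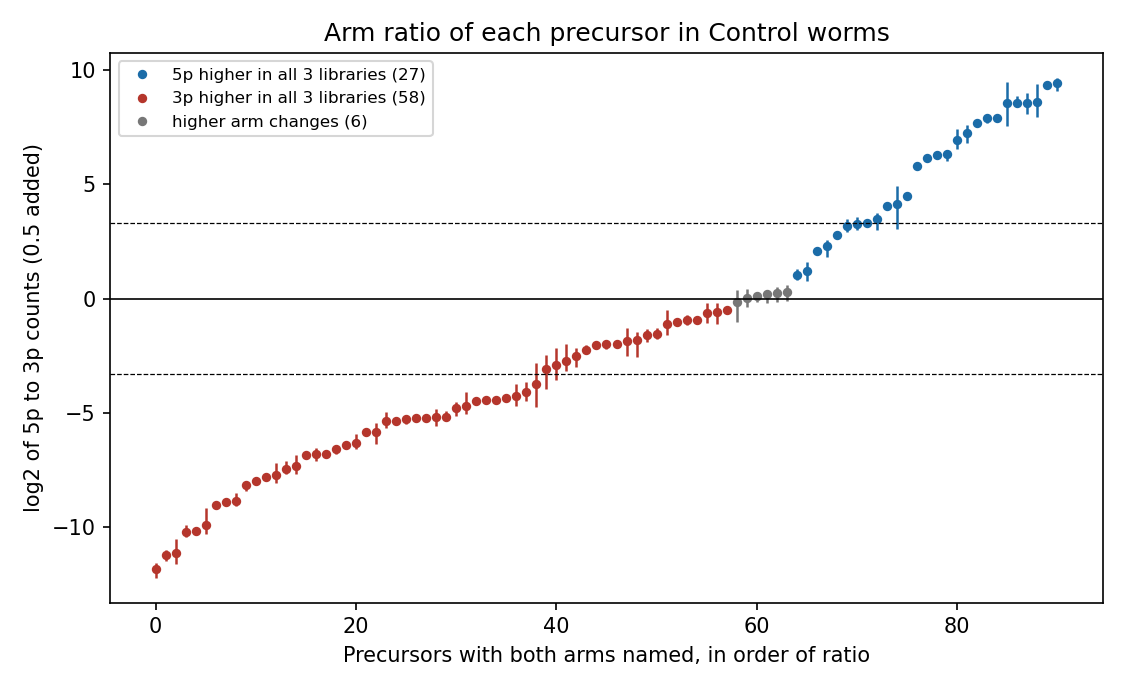
The log2 ratio of 5p to 3p counts (0.5 added to each) for the 91 precursors with both arms named and 10 or more counts in every library, in order of the mean (point) with a line from the lowest to the highest library. Dashed lines mark a 10-fold difference, and 27 precursors had more 5p, 58 more 3p and 6 no fixed order.

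Positions were taken from the WBcel235 annotation, which placed 257 of the 263 names on 165 hairpins. The other 6 names, with 0.0151% of the counts, were not placed. The miR-1-3p arm lies on chromosome I at 6172677 to 6172697 on the minus strand, outside any annotated protein-coding gene. The miR-58a-3p arm lies on chromosome IV at 3233314 to 3233335 on the plus strand, within an intron of Y67D8A.2. miR-70-3p lies on chromosome V at 6665552 to 6665574 in an intron of pmp-5, and miR-71-5p on chromosome I at 9379983 to 9380005 in an intron of ppfr-1, both on the strand of the host gene. Chromosome I, with 18 hairpins, gave 48.4% ± 5.13 of the counts, nearly all from miR-1-3p and miR-71-5p, and the X chromosome, with 51 hairpins, gave 4.56% ± 0.561 (SD, n = 3). Chromosomes II, IV, V and III gave 18.6%, 15.4%, 7.92% and 5.05%, led by miR-35-3p, miR-58a-3p, miR-70-3p and miR-80-3p.

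Where the counts came from in relation to protein-coding genes depended on miR-1-3p. The 97 intergenic hairpins took 61.9% ± 4.46 of the counts, the 46 in an intron on the same strand 25.6% ± 2.70, and the 18 in an intron of a gene on the opposite strand 12.4% ± 1.85 (SD, n = 3). With miR-1-3p left out, hairpins in an intron on the same strand came first, with 45.5% ± 2.29 of the other counts, followed by intergenic hairpins with 32.4% ± 2.75 and hairpins in an intron of a gene on the opposite strand with 22.0% ± 1.24 (SD, n = 3). miR-58a-3p alone, in the same-strand intron class, held 22.3% of the counts other than miR-1-3p. The 7 neighbouring hairpins mir-35 to mir-41, in the opposite-strand intron class, held 11.4% of all counts against 12.4% for the class. The order of the classes thus rests on a few loci. Exons held 3 hairpins on the same strand, with 0.0333% of the counts, and 1 on the opposite strand, with 0.00848%. By annotated length, arms of 21 nt took 48.1% of the counts (miR-1-3p among them), arms of 22 nt took 28.9% and arms of 23 nt 20.4%. The higher and the lower arms of a precursor had the same median length, 22 nt.

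Hairpins on the same strand within 2000 bases of each other formed 18 clusters with 46 hairpins and 22.1% ± 2.54 of the counts (SD, n = 3). Such neighbours are often cut from a shared transcript, but the counts of their mature miRNAs were unequal. The ratio of the highest to the lowest hairpin had a median of 6.22 over the 18 clusters, with a range of 1.41 to 1375, and it was over 10 in 6 of them. The lowest ratio was that of mir-247 and mir-797 on the X chromosome (31.8 and 22.6 CPM) and the highest that of mir-86 and mir-8211 on chromosome III (1317 and 0.958 CPM). miR-8211-3p was under the bar of 10 counts, and over the 16 clusters whose hairpins all had 10 or more counts in every library the highest ratio was 593, with a median of 6.22 and 5 clusters over 10.

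The cluster of mir-35 to mir-41 spans 11537608 to 11538404 of chromosome II on the plus strand, in an intron of Y62F5A.9, which lies on the opposite strand. With both arms added, mir-35 had 50032, 38902 and 40773 CPM, and the next hairpin, mir-36, had 3701, 2753 and 3743 CPM. The levels then alternated along the cluster up to mir-40. Means were 39968 CPM for mir-37, 1479 CPM for mir-38, 23961 CPM for mir-39 and 2180 CPM for mir-40. The last hairpin, mir-41, broke this pattern with a mean of 72.9 CPM, lower than mir-40. The ranges of neighbouring hairpins over the 3 libraries did not overlap. mir-41 was also the member whose arms were reversed, with 326, 187 and 332 counts for 5p and 108, 111 and 133 for 3p, while miR-40, the next in arm ratio, had 21.6-fold more 3p than 5p and the other 5 had more than that. The eighth member of the family, mir-42, lies farther along chromosome II with mir-43 and mir-44. There mir-42 had a mean of 281 CPM, mir-43 44.8 CPM and mir-44 15735 CPM, a range of 351-fold. The mir-44 value is uncertain, since miR-44-3p and miR-45-3p have the same counts.

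**Figure D4:**
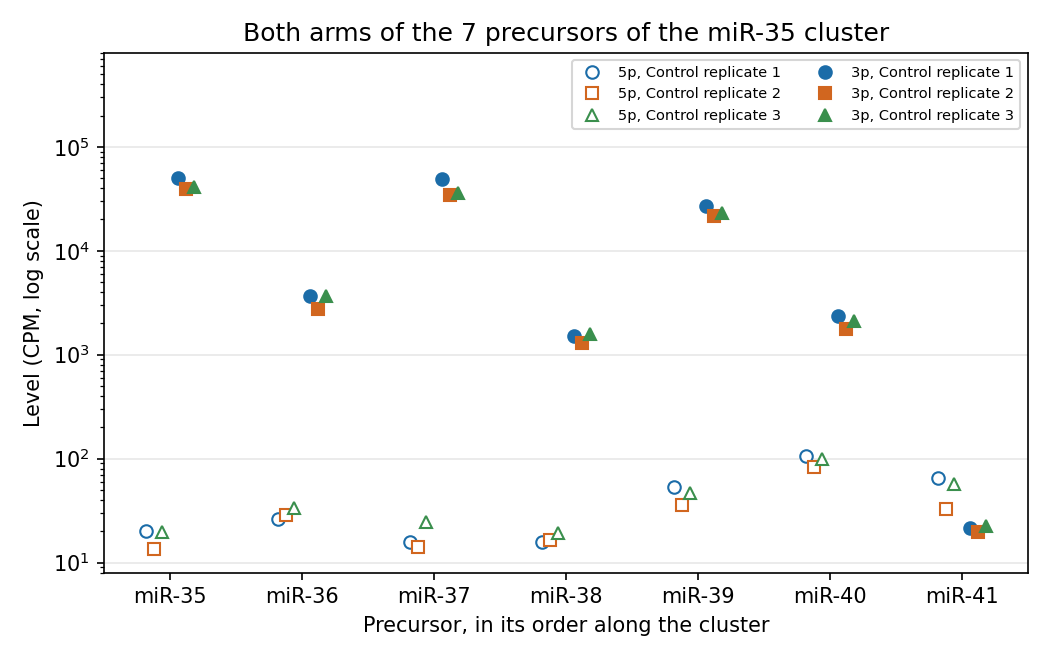
Levels in CPM (log axis) of the 5p arms (open) and the 3p arms (filled) of the 7 precursors of the miR-35 cluster in their order along chromosome II, with a symbol for each Control library. Up to miR-40 the 3p levels alternate between high (miR-35, miR-37, miR-39) and lower precursors. miR-41 has the lowest 3p level, and its 5p arm is the higher in all 3 libraries.

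Other clusters ranged from even to uneven. mir-54, mir-55 and mir-56 on the X chromosome lay within 2.49-fold of each other, and mir-229, mir-64, mir-65 and mir-66 on chromosome III within 6.24-fold, with means of 1096, 2025, 2004 and 6834 CPM. mir-48 and mir-241, let-7 relatives that formed a cluster on chromosome V, differed by 34.6-fold, with means of 18889 and 545 CPM. mir-240 and mir-786 differed by 146-fold.

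The lists of tissue and function miRNAs were of very unequal weight. Against the 43.7% of the muscle miRNA miR-1-3p and the 11.4% of the embryo list, the 3 intestinal miRNAs took 0.162%, 0.158% and 0.187% of the counts. Nearly all of this was miR-60-3p, with 1504, 1486 and 1758 CPM. miR-243-3p averaged 104 CPM and miR-786-3p, which acts in the intestinal defecation rhythm, 3.15 CPM. The intestinal list leaves out miR-240-3p (mean 0.0302%), whose hairpin is clustered with mir-786. The 4 listed neuronal miRNAs took 0.0120%, 0.0120% and 0.0128% of the counts. The neuronal list leaves out miR-71-5p (mean 4.42%), which is made in neurons and other tissues. It also leaves out miR-790-5p (mean 0.0414%), a family relative of miR-791-3p. The weights given are thus those of the lists, not of the intestine or of neurons. miR-234-3p was the highest of the 4, with 105, 103 and 113 CPM, and miR-791-3p, which acts in carbon dioxide-sensing neurons, averaged 5.74 CPM. miR-124-3p, the marker of ciliated sensory neurons, had 25, 37 and 28 counts. lsy-6-3p, which sets the left-right difference of a single pair of taste neurons, was still detected, with 21, 31 and 22 counts (4.21, 5.45 and 3.75 CPM). All members of the intestinal and neuronal lists had 10 or more counts in every library.

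The 7 miRNAs tied to lifespan or stress in worms took 5.37%, 4.68% and 6.81% of the counts, most of it miR-71-5p. miR-228-5p had 5270, 4914 and 5020 CPM, miR-238-3p 3145, 2697 and 3924 CPM, and miR-246-3p 3406, 2786 and 3554 CPM. miR-34-5p, which responds to DNA damage in animals, averaged 417 CPM ± 73.9 (SD, n = 3). The related miR-239a-5p and miR-239b-5p differed widely in level, with 91, 78 and 78 counts for miR-239a-5p and 7, 3 and 3 for miR-239b-5p, the only listed miRNA under the bar of 10 counts. These lists were drawn up with earlier results of the same libraries known, and their levels are descriptions.

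Between the 3 libraries, the coefficient of variation (CV, the SD over the mean of CPM) had a median of 15.9% over the 215 miRNAs, whereas counting alone would give a median of 6.25%. It exceeded the counting value in 175 of 215 miRNAs. The excess over counting differed with depth. For the 68 miRNAs with a mean count of 10 to 100 the median CV was 20.0% against 18.6% from counting. The spread of these miRNAs between libraries was thus near counting error. For the 72 with 100 to 1000 counts it was 13.3% against 6.44%, for the 40 with 1000 to 10000 counts 14.2% against 2.11%, and for the 35 above that 13.8% against 0.541%. The biological coefficient of variation that edgeR estimated from the 3 libraries was 12.2%. It leaves out counting error and was estimated after a further scaling of the libraries (TMM, given below). The CVs above are of CPM and include counting error, so they are unlike that value.

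**Figure D5:**
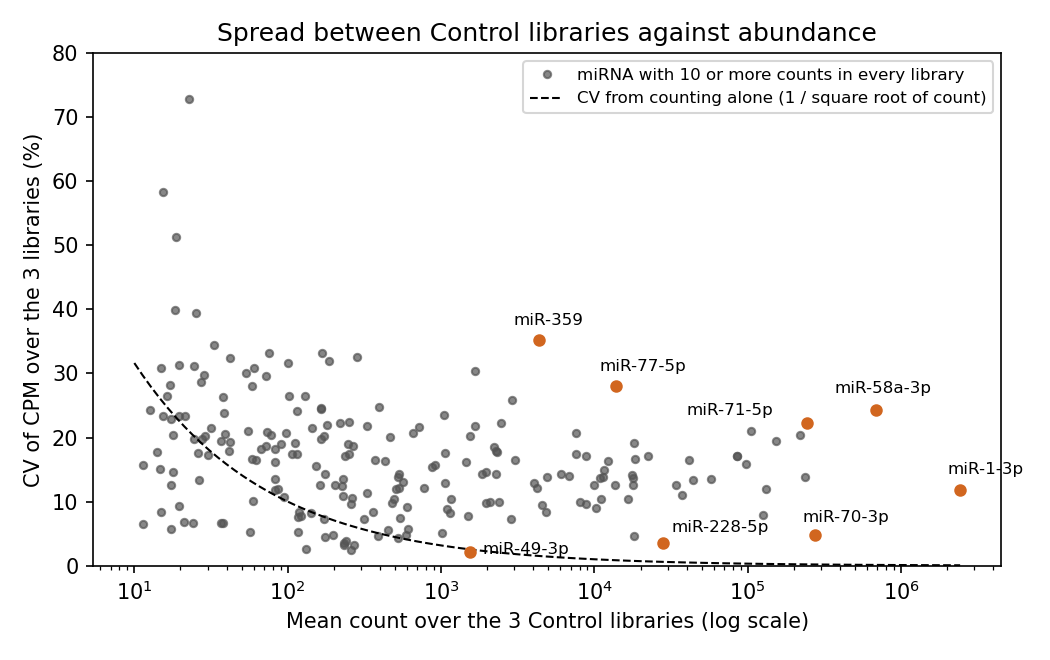
CV of CPM over the 3 Control libraries in percent against the mean count (log axis) for the 215 miRNAs with 10 or more counts in every library, with the CV that counting alone gives as a dashed line and 8 miRNAs named. Above 10000 counts the median CV was 13.8% where counting gives 0.541%.

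Single miRNAs lay on both sides of these medians. Of those with a mean count of 100 or more, the lowest CV was that of miR-49-3p, with 286, 282 and 275 CPM (2.07%), followed by miR-237-3p (2.51%), let-7-3p (2.53%), miR-230-5p (3.18%) and miR-790-3p (3.20%). Apart from miR-49-3p these were scarce arms with 132 to 272 counts on average. All 5 lay below the CV that counting alone gives, which was 2.54% for miR-49-3p and 8.75% for let-7-3p, and with libraries scaled by the trimmed mean of M-values (TMM) their CVs were 7.03% to 12.6%. miR-228-5p had a CV of 3.61% in CPM and of 7.59% with TMM. At the same minimum of 100 counts the highest CV belonged to miR-359, with 634, 605 and 1094 CPM (35.3%), and replicate 3 stood apart from the other libraries. miR-1822-3p (33.1%) was high in replicate 1, miR-41-5p (32.5%) was low in replicate 2, miR-79-5p (31.9%) was lowest in replicate 1, and miR-37-5p (31.7%) was high in replicate 3. With TMM these 5 CVs were 24.6% to 33.4%. Below that minimum, miR-2208a-5p had the highest CV (72.9%) of the miRNAs with 10 or more counts in every library. It had only 10, 15 and 43 counts.

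Part of the spread was common to most miRNAs. In CPM, replicate 2 was the highest library for 15 of the 215 miRNAs and the lowest for 138, and it was also the library with the highest share of miR-1-3p. The median log2 ratio over miRNAs was 0.22 for replicate 1 over replicate 2, 0.03 for replicate 1 over replicate 3 and −0.23 for replicate 2 over replicate 3. TMM scaling, whose factors were 1.07, 0.892 and 1.05, evened this out, with replicate 2 the highest for 68 and the lowest for 50 of the 215 miRNAs. The median CV was then 12.5%. With miR-1-3p taken out of the total, miR-35-3p stood at 8.08%, 7.51% and 7.40% of the other counts and miR-39-3p at 4.37%, 4.14% and 4.22%. miR-58a-3p was at 25.0%, 24.8% and 17.03% and miR-71-5p at 6.69%, 6.95% and 10.0%, so replicate 3 still stood apart, low for miR-58a-3p and high for miR-71-5p.

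The libraries nonetheless ranked the miRNAs in nearly the same order. Every pair of libraries shared 20 of the 20 most abundant miRNAs and 9 or 10 of the 10 most abundant. Across the 215 miRNAs, which are not independent replicates and share their library's total, Pearson's r of log2 CPM was 0.994 to 0.997. Between a pair of libraries, 2 to 4 miRNAs differed by more than 2-fold and 24 to 28 by more than 1.5-fold. Chi-square per degree of freedom over the counts of a pair, used only to look for a library deposited more than once, was 465 to 816, which is the size of the differences relative to read sampling and takes reads as independent.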

How the data were processed

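Total RNA of whole worms was sequenced after small RNA library preparation (Multiplex Small RNA Library Prep Set, NextSeq 500). A poly(A) selection step appears in the labels of these samples, but the paper has it for mRNA. The authors filtered reads with Solexa CHASTITY, removed the 3′ adapter and reads under 17 nt with Cutadapt (1.14 in the submitters' processing notes) and quantified miRNAs with mirdeep2. The sources used here give neither the miRBase release nor the rule for reads with more than 1 matching hairpin. The deposited values were raw read counts per mature miRNA, without normalization and with replicates kept apart, and the combined table equalled the sample tables in 12 of 12 libraries. Of 268 entries, 263 had distinct names. For the 5 repeated names the entry with the higher total was kept, and only miR-5592-5p had unequal entries (775 and 732 Control counts).

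The Control totals were 4990586 to 5868806 counts. Shares and CPM used the total of all names. How evenly the library preparation captured different miRNAs was not tested, so ratios between miRNAs, arms or hairpins are ratios of counts. Wilson intervals (95%) covered counting error only. Families and lists were hand-written from names in general use, since the seed of each miRNA could not be read, and the members and lists were chosen with earlier results of these data known. Arm ratios used a pseudocount of 0.5 and at least 10 counts over both arms in every library. Clusters were hairpins at most 2000 bases apart on a strand of WBcel235. No treatments were compared and no test was made, so means and SDs describe 3 libraries whose spread may be technical. The miRNAs named were the 15 with the highest mean share, the members of the 10 leading families, the 5 highest, 5 lowest and 5 most balanced arm ratios, the 5 highest and 5 lowest CVs at a mean count of 100 or more, and the listed miRNAs. Others (such as miR-77, miR-254-5p, miR-4813-5p, the lin-4 family and the clusters) were chosen after their values were seen.

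The scripts were tested on simulated data. Tools were Python 3.11.15 (numpy 2.4.6, pandas 2.3.3, scipy 1.17.1, matplotlib 3.10.9) and R 4.3.3 with edgeR 4.0.16 and DESeq2 1.42.0. Alternatives were each replicate left out, the first entry of repeated names, identical names merged, other count minimums, miR-1-3p left out of the total, thinning to 4990586 counts (random seed 1), TMM or DESeq2 scaling, and a pseudocount of 5.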

Additional observations from a re-analysis of the deposited data

How the results depend on the processing

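Of 103 alternative values of the main summaries, 94 moved by less than the spread between libraries (or, for counts, by less than 1.5 times) and 9 moved further. Shares depended on miR-1-3p. With it left out of the total, the top 10 miRNAs took 73.6% of the counts, 24 miRNAs reached 90%, the effective number was 21.9, the largest family (miR-58) took 30.8%, the 5 leading families took 74.8% and 5p arms gave 25.6%. The other moves followed from the bars set. A minimum of 100 counts left 141 miRNAs, the abundance range with at least 1 count in every library was 6.26 units of log10, and 89 precursors had a 10-fold arm majority when those with a single named arm were added. Of 292 values of single miRNAs, families and precursors, 265 stayed and 27 moved, 24 of them with miR-1-3p left out, 1 (the miR-44 family, 2.37%) with identical names merged and 2 with a pseudocount of 5, an alternative added after seeing the data (log2 of 5p to 3p −9.79 for miR-246 and 9.25 for miR-66). Leaving out each library in turn gave 41.5% to 46.5% for miR-1-3p, 216 to 225 miRNAs with 10 counts, 29 to 30 precursors with a 5p majority and a median CV of 11.4% to 13.1%. A bar set in every library is met as often or more often with a library left out, and an SD of 2 values tends to be lower. The ranges for miRNAs with 10 counts, for the 5p majority and for the CV were thus partly fixed in advance. The mean ratio of miR-231 was between −0.01 and 0.23, that of miR-67 between −0.13 and 0.25 and that of miR-789 between −0.39 and 0.31, so which arm was higher on average depended on the libraries kept. The median CV was 12.5% with TMM or DESeq2 scaling and 17.4% without a filter.

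Grouping by a shorter seed was not run, since mature sequences were not used here. No paired analysis was possible because a single group was described and no test was made. With 3 libraries of a group an SD is imprecise, and for miRNAs under 100 counts counting error alone is near the spread observed. Names with equal counts in 12 of 12 libraries (miR-44-3p and miR-45-3p, miR-8187-3p and miR-8188-5p) or in 8 of 12 (miR-1829c-3p with miR-1829b-3p) may share reads, which was not tested. The shares of annotation classes without miR-1-3p, the cluster ratios at 10 counts and the CVs of single miRNAs with TMM were added after seeing the data and are not in the counts of values above.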
